A study of Caenorhabditis elegans with 2 samples.

Results

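The 8 protein-coding genes described here are the core of the heterochronic pathway of Caenorhabditis elegans: lin-14, lin-28, lin-46, hbl-1, lin-41, lin-29, lin-42 and daf-12. They are 8 of 19973 annotated protein-coding genes on the 6 chromosomes. They were selected on results of this same experiment, the positions and signals of its peaks, so every count below is a description and no test was made. For each gene, all peaks whose summit lay inside the gene or within 5 kb of it, called its window, were collected from the 8 deposited peak lists. The windows can hold other genes, from 1 other protein-coding gene at daf-12 to 5 at lin-46, so a summit in a window is a position and not an assignment.

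Whole L4 larvae aged 50 h, grown from embryos released by bleaching and held as starved L1, were used for chromatin immunoprecipitation followed by sequencing. Both biological replicates came from 1 strain, which carries the integrated transgene nhr-42::TY1 EGFP 3xFLAG together with unc-119(+) in an unc-119(tm4063) background. An antibody against GFP was used on chromatin sonicated to fragments of 200 to 800 bp. The 2 replicates form the only group, both carry the tag, and no untagged or input library was analysed here. The animals were taken whole, so the cells that gave a peak are unknown, and fewer cells with the protein and less protein per cell cannot be told apart. Read depth is unknown, since the lists hold no read counts. The thresholded lists held 875 peaks in replicate 1 and 702 in replicate 2, and a conservative list built on both held 1627 and is the main list. A second list built on both, called the other series list, held 1789. Each list has a longer ranked version that also keeps peaks below the threshold, with 105959 peaks for the conservative one. The score of a peak is derived from the irreproducible discovery rate (IDR) and cannot exceed 1000. The IDR measures how well the rank of a peak repeats between 2 sets of peaks. A score in a replicate list, made from 1 replicate's alignments, does not compare the 2 replicates. The threshold score of 830 corresponds to an IDR of 0.01. The signal of a peak is the authors' value without a stated unit, and peaks are ranked only within a list. Values of the 2 replicate lists are also set side by side, as ratios and as means with an SD, and a difference in scale between those lists would enter both.

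Heterochronic genes set the order of cell fates through the larval stages of the nematode, most visibly in the seam cells of the hypodermis. Early fates are held by lin-14, lin-28 and hbl-1, which are switched off in turn by small RNAs of the lin-4 and let-7 families. Later, let-7 lowers lin-41, which lets lin-29 direct the change from larval to adult hypodermis. daf-12 ties this clock to steroid hormones made under good growth conditions, and lin-42 gives it a rhythm linked to the molts. NHR-42 itself is a nuclear hormone receptor, a family of transcription factors with zinc finger DNA-binding domains.

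The peaks that carry the result are shown first by their sequence around the summit. Each line gives the window of 50 bp to either side of a conservative summit, on the plus strand of build ce11, 5′ to 3′. The window of the daf-12 summit at position 10668064 is not printed. It holds none of the words marked, and neither does the lin-42 intron 3 window, which is printed. The lin-46 window is cut short so that it leaves out an annotated untranslated region. Capitals mark matches on either strand to any of 6 words. The first is the core half-site of nuclear receptors, AGGTCA. The second is a GA repeat, written GAGAG, and the third is the E-box CACGTG, a site of helix-loop-helix proteins. The fourth is TGATAA, the site of GATA factors. The fifth is GTTCGA, the core of the B box, a promoter element that lies inside tRNA genes. The last is ACGCAG, which was noticed in several of these windows.
lin-46 upstream peak (chrV:12967983-12968078): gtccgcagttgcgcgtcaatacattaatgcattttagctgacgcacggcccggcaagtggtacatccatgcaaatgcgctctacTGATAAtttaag
lin-42 first intron peak (chrII:1246965-1247065): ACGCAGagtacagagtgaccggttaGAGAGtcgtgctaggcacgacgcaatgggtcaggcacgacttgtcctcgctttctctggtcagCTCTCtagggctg
lin-42 intron 3 peak (chrII:1242521-1242621): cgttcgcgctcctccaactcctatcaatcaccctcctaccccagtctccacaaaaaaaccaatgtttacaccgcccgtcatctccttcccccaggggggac
daf-12 first intron peak (chrX:10637492-10637592): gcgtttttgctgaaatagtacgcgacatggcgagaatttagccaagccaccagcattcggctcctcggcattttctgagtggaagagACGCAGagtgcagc
daf-12 downstream peak at the tRNA gene (chrX:10667559-10667659): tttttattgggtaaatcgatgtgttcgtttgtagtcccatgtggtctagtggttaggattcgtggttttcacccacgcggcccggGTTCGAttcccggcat
lin-14 intron 3 peak (chrX:11473122-11473222): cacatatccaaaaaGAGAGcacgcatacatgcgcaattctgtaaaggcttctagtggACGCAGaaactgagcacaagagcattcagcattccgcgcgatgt

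A conservative summit lay in the windows of 4 of the 8 genes (lin-46, lin-42, daf-12 and lin-14), against 17.3% of all protein-coding genes. lin-28, hbl-1, lin-41 and lin-29 had none. The 4 genes held 7 conservative peaks, 3 at daf-12, 2 at lin-42 and 1 each at lin-46 and lin-14. In all, 222 protein-coding genes (1.11%) had 3 or more conservative summits, as daf-12 had. The daf-12 window is 41.0 kb long, and that share was not counted among genes of like length. Per length of sequence, the 8 windows together held 37.5 conservative summits per Mb in 186 kb, against 16.2 per Mb over the genome.

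The 8 genes have a median length of 12700 bp against 2027 bp for all protein-coding genes, and a longer window collects more summits. Their lengths vary widely, from 1876 bp at lin-46 and 3175 bp at lin-28 to 30968 bp at daf-12. Of the 4 members longer than 15 kb, 3 held a conservative summit (lin-42, daf-12 and lin-14, but not lin-29), against 31.7% of all genes longer than 15 kb. That length limit was chosen after the gene lengths were seen. Inside the gene itself, a conservative summit lay in 3 of the 8 genes (lin-42, daf-12 and lin-14), against 3.00% of all genes, whose typical length is much shorter. In the promoter window, from 1000 bp upstream to 200 bp downstream of an annotated 5′ end, it lay in 1 of the 8 (lin-46), against 4.43% of all genes. The called peaks of lin-42 and lin-14, and 1 of the 3 at daf-12, were intronic.

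In the other series list, 5 of the 8 genes had a summit, against 18.8% of all genes, the added gene being lin-41. Replicate 1 alone gave 3 of the 8 (lin-46, lin-42 and lin-41), against 10.8% of all genes. Replicate 2 alone also gave 3 of the 8 (lin-46, lin-42 and daf-12), against 9.01% of all genes. A conservative peak that overlapped a thresholded peak of each replicate was present at 2 of the 8 (lin-46 and lin-42), against 6.16% of all genes. lin-46 and lin-42 were the members called in all 4 thresholded lists. Of the 7 conservative peaks, 2 passed in both replicates, 2 passed in replicate 2 only and 3 passed in neither. Among all 1627 conservative peaks, 434 passed in both (26.7%) and 740 in neither (45.5%).

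**Figure D1:**
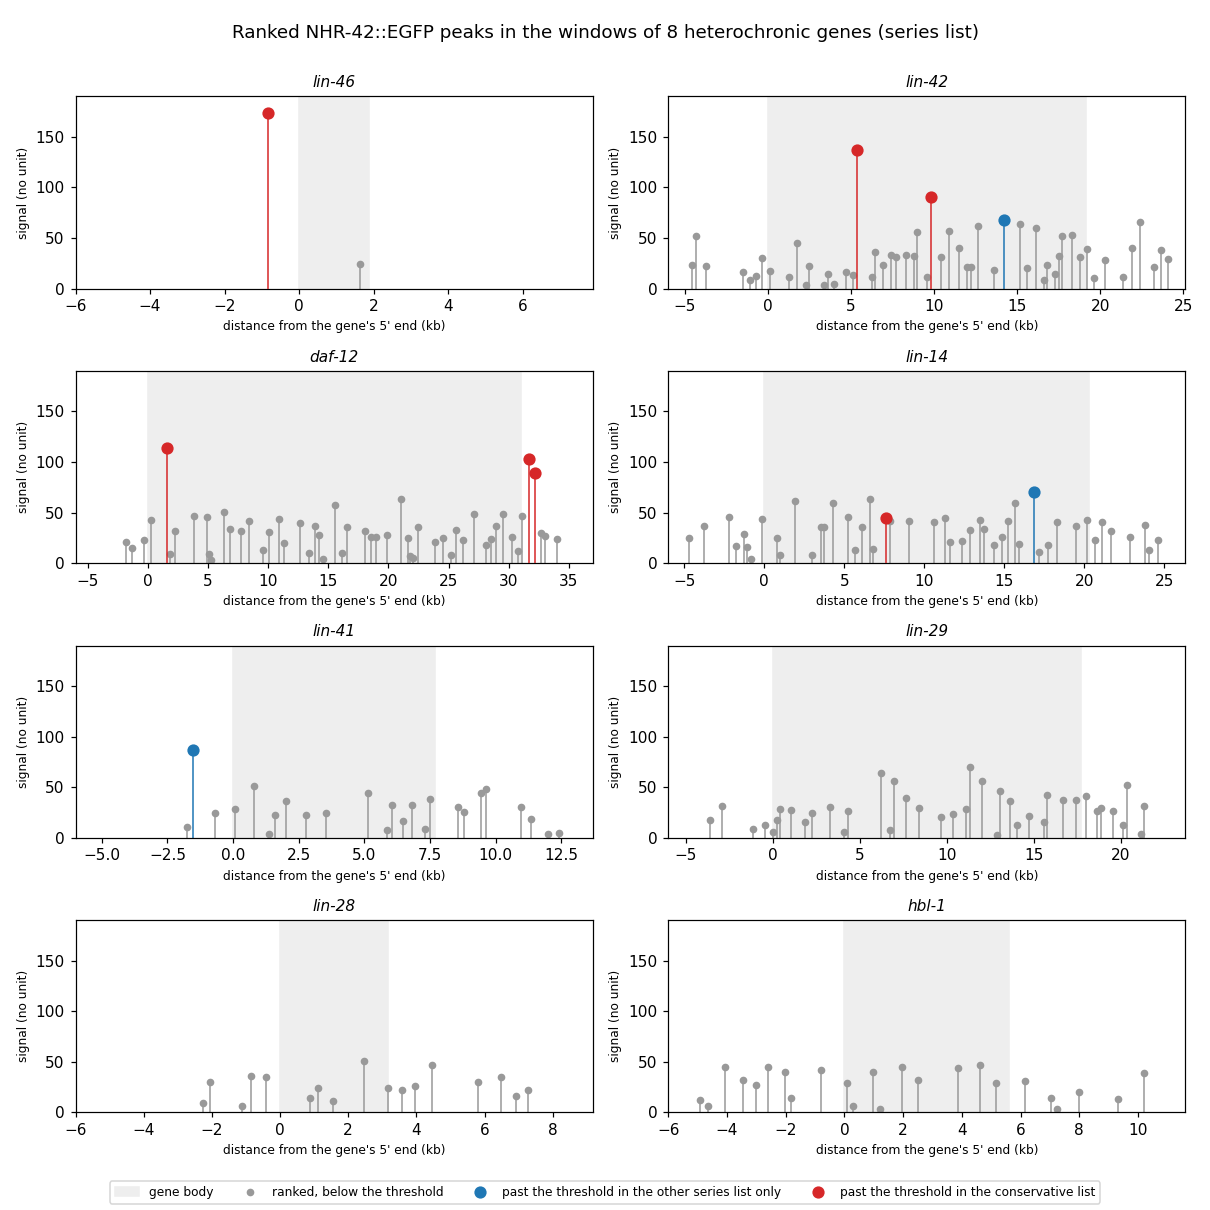
Each panel shows 1 gene with the distance of ranked summits from its 5′ end in kb on the horizontal axis and their signal on the vertical axis, from the conservative ranked list. Red points passed the threshold in the conservative list, blue points only in the other series list and grey points in neither. The single tall peak of lin-46 reaches 174 and stands almost alone, while lin-42, daf-12 and lin-14 carry their called peaks among many lower ones.

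lin-46 encodes a protein related to gephyrin, a scaffold protein, and acts downstream of lin-28 to promote the move to later fates. It is the shortest member, at 1876 bp on chromosome V (WBGene00003031, 12968855 to 12970730, plus strand). Its peak at chrV:12967878-12968177 had the highest signal of the 8 genes, 174, at rank 213 of 1627 conservative peaks, with a score of 1000. The matching peak had a signal of 103 with a score of 1000 in replicate 1 and 60.1 with a score of 860 in replicate 2, so it passed in both, at a ratio of 1.71 (replicate 1 over replicate 2). Over the 1606 conservative peaks with a ranked match in both replicates, the median ratio was 0.983 and the quartiles were 0.798 and 1.24.

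The lin-46 summit lay 827 bp upstream of the gene and only 46 bp upstream of R186.8 (WBGene00011309), which runs the other way. By the nearest 5′ end the peak therefore belongs to R186.8, and the data do not separate the 2 genes. The region around it was sparse. The lin-46 window held 2 ranked summits in 11.9 kb, or 0.168 per kb, against a median of 1.19 per kb over all protein-coding genes and 1.29 to 1.89 at the other members. The second of these summits lay in an exon of lin-46 and had a signal of 24.2 with a score of 146. The sequence around the strong summit held 1 GATA word near its right edge, and the whole peak held 2.

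lin-42 is the worm relative of the Period genes of animal circadian clocks, and its transcripts cycle with the molts. It lies on chromosome II (WBGene00018572, 1233236 to 1252359, minus strand) and has 5 annotated 5′ ends. Its stronger peak, chrII:1246865-1247164, had a signal of 137, a score of 1000 and rank 371 of 1627. The matching peak had a signal of 50.8 with a score of 833 in replicate 1 and 82.6 with a score of 1000 in replicate 2, so it passed in both, by a narrow margin in replicate 1. The summit lay in the first intron of the transcripts F47F6.1d and F47F6.1f, 5344 bp downstream of the distal 5′ end and 2980 bp upstream of the next one. It also lay inside the small non-coding RNA genes F47F6.13 and F47F6.15, which overlap there on opposite strands.

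The other conservative peak of lin-42, at chrII:1242421-1242720, had a signal of 90.3, a score of 1000 and rank 957. In replicate 2 it passed with a signal of 57.8 and a score of 917, whereas in replicate 1 it had a signal of 35.0 and a score of 544 and did not pass. This summit lay 4444 bp from the first, in intron 3 of F47F6.1d and F47F6.1f and 1464 bp downstream of an internal 5′ end. A further intronic peak with its summit at position 1238182 and a signal of 67.7 scored 894 in the other series list and 712 in the conservative ranking, where it was not called. It did not pass in either replicate, with a signal of 27.0 in replicate 1 and 48.9 in replicate 2. Replicate 2 alone also called an exonic peak with its summit at position 1243525 and a signal of 38.5, against an overlapping signal of 16.3 in replicate 1. At all 3 intronic peaks the signal was lower in replicate 1 than in replicate 2, at ratios of 0.614, 0.606 and 0.552, which lie below the lower quartile of all conservative peaks. lin-42 had 55 ranked summits, or 1.89 per kb, the densest window of the 8.

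daf-12 encodes the nuclear hormone receptor that binds dafachronic acids and decides between reproductive growth and dauer arrest. It is the longest member at 30968 bp on chromosome X (WBGene00000908, 10635908 to 10666875, plus strand) and has 9 annotated 5′ ends. Its strongest peak, chrX:10637392-10637691, had a signal of 114, a score of 1000 and rank 542. It had a signal of 49.6 with a score of 743 in replicate 1 and 60.2 with a score of 1000 in replicate 2, and passed in replicate 2 only. The summit lay in intron 1 of 18 of the longest transcript, F11A1.3e.3, 1634 bp downstream of the most distal 5′ end. Of the 10 annotated transcripts only this one covers the summit, so the peak is intronic by that transcript alone.

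The other 2 conservative peaks in the daf-12 window lay beyond the 3′ end of the gene. At chrX:10667459-10667758 the signal was 103 at rank 696, and the summit fell 734 bp past the gene, inside a tRNA gene (WBGene00014320, X, 10667593 to 10667664) that RefSeq annotates as tRNA-Glu. The replicate signals there were 51.9 in replicate 1 and 45.9 in replicate 2, with scores of 716 and 181, below the threshold in both. At chrX:10667914-10668213 the signal was 89.0 at rank 990, and the summit fell 1189 bp past daf-12, 400 bp from the tRNA gene and 98 bp past the 3′ end of the neighbouring gene F13E6.2. The replicate signals were 40.5 in replicate 1 and 44.3 in replicate 2, again below the threshold in both. The summits of these peaks are 455 bp apart. Over all conservative peaks, 194 (11.9%) had a summit within 200 bp of a tRNA gene. What the tRNA gene contributes to the daf-12 peak was not tested. The intronic peak at the 5′ end of daf-12 lay 29480 bp from the nearest tRNA gene.

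lin-14 encodes a nuclear DNA-binding protein that specifies first-stage fates and is the classic target of lin-4. It lies on chromosome X (WBGene00003003, 11465560 to 11485871, plus strand) with 2 annotated 5′ ends. Its conservative peak, chrX:11473022-11473321, was weak, with a signal of 44.4 at rank 1562 of 1627 and a score of 882. The replicate signals were 34.1 in replicate 1 and 41.6 in replicate 2, with scores of 724 and 492, so it passed in neither. The summit lay in intron 3 of 11 of the longer transcript, 7612 bp downstream of its 5′ end and 7189 bp upstream of the internal one.

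The other series list did not call that lin-14 peak and called another one instead, chrX:11482253-11482552, with a signal of 70.8 and a score of 897. This summit lay 9231 bp from the first, in intron 5 of the longer transcript and 2042 bp downstream of the internal 5′ end. It had a signal of 51.1 with a score of 614 in replicate 2, and no ranked peak of replicate 1 overlapped it. In the conservative ranking it scored 651. lin-14 was thus called in both series lists by different peaks and in neither replicate alone, while 84.0% of all conservative peaks overlapped the other series list, as did 6 of the 7 at these genes.

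lin-41 encodes an RNA-binding protein of the TRIM-NHL family and is a main target of let-7. It lies on chromosome I (WBGene00003026, 9334800 to 9342496, minus strand). Its strongest peak, chrI:9343858-9344157, had a signal of 86.8 and lay 1512 bp upstream of the gene, where the nearest 5′ end was its own and the nearest other gene body, M04C9.2, ended 716 bp away. It scored 1000 in the other series list and 281 in the conservative ranking. In replicate 1 it passed, with a signal of 59.9 and a score of 1000. In replicate 2, 2 ranked peaks overlapped it and neither passed. The one with its summit at position 9344006 had a signal of 20.4 and a score of 469, and the stronger one, with its summit at position 9344233, had a signal of 23.4 and a score of 43. The ratio of replicate 1 over replicate 2, taken with the stronger one, was 2.56. It was the widest among the called series-list peaks of the 8 genes that had a ranked match in both replicates. The lin-14 peak without a match in replicate 1 has no ratio. Over the window, the highest signal of lin-41 was above 91.3% of all genes in replicate 1 and above 49.6% in replicate 2.

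lin-29 encodes a zinc finger transcription factor of the EGR family and acts last in the pathway. It lies on chromosome II (WBGene00003015, 11917642 to 11935343, minus strand), is 17702 bp long and held 40 ranked summits, none of them called in any thresholded list. Its strongest peak, with its summit at position 11924019 in an intron, had a signal of 69.9 and a score of 702. The replicate signals there were 30.0 in replicate 1 and 36.4 in replicate 2, with scores of 113 and 321.

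lin-28 encodes an RNA-binding protein that blocks the maturation of let-7. It lies on chromosome I (WBGene00003014, 8407630 to 8410804, minus strand) and held 17 ranked summits. Its strongest peak, with its summit at position 8408327 in an exon, had a signal of 50.8 and a score of 515, with a signal of 25.5 in replicate 1 and 31.7 in replicate 2. It was not called in any thresholded list.

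hbl-1 encodes a zinc finger protein related to Hunchback of the fly and acts with lin-28 to specify second-stage fates. It lies on chromosome X (WBGene00001824, 5822142 to 5827755, plus strand) and held 24 ranked summits, none called in any thresholded list. Its strongest peak, with its summit at position 5826765 in an exon, had a signal of 46.8 and a score of 273, with a signal of 23.5 in replicate 1 and 20.5 in replicate 2. Its highest score in the conservative ranking, 588, belonged to a peak 1824 bp upstream with a signal of 14.1. That peak overlapped the strongest peak of hbl-1 in replicate 1, with a signal of 43.8 and a score of 493 at 2032 bp upstream. In replicate 2 it overlapped a peak with a signal of 26.9 and a score of 46 at 1751 bp upstream, and another with a signal of 6.72 lay further upstream.

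**Figure D2:**
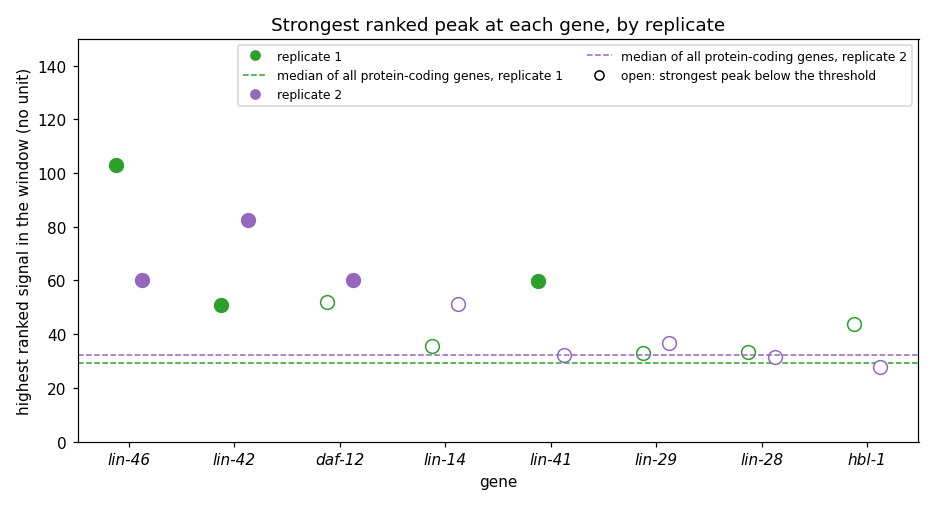
Points give the highest ranked signal in the window of each gene in replicate 1 and replicate 2, filled where that peak passed the threshold and open where it did not. Dashed lines give the medians over all protein-coding genes, 29.4 in replicate 1 and 32.2 in replicate 2, not matched for gene length. lin-46 and lin-42 are filled in both replicates, in opposite order, while lin-41 lies at 59.9 in replicate 1 and at 32.1 in replicate 2, next to the median, with lin-28, lin-29 and hbl-1 close by.

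The highest ranked signal in each window gives all 8 genes a value, called or not. It is the largest value among all ranked summits of a window, so a longer window has more summits to draw it from. The members have a median length of 12700 bp, against 2027 bp for all protein-coding genes. No ranking among genes of like length was made, and what length contributes to the ranks below was not tested. In the conservative ranked list lin-46 came first with 174, followed by lin-42 with 137 and daf-12 with 114. Then came lin-41 with 86.8, lin-14 with 70.8 and lin-29 with 69.9. lin-28, with 50.8, and hbl-1, with 46.8, came last. The median was 78.8 for the 8 genes and 54.8 for the 18746 protein-coding genes with a ranked summit, and 6 of the 8 lay above it. lin-46 was above 96.3% of those genes, lin-42 above 93.9%, daf-12 above 91.5% and lin-41 above 85.2%. lin-28 was above 39.7% and hbl-1 above 29.1%, below the middle of the genome. In replicate 1 alone these 2 early genes were above 65.5% and 83.3% of all genes, and in replicate 2 above 47.6% and 29.1%.

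The order of the genes differed between the replicates. lin-46 came first in replicate 1, with 103, before lin-41 with 59.9, daf-12 with 51.9 and lin-42 with 50.8. lin-42 came first in replicate 2, with 82.6, before daf-12 with 60.2, lin-46 with 60.1 and lin-14 with 51.1. In replicate 1 the 8 genes had a median of 47.3, against 29.4 for all genes, and all 8 lay above the value for all genes. In replicate 2 they had a median of 44.0, against 32.2, and 5 of the 8 lay above it. These medians were not matched for gene length either. Over both replicates the highest signal, which need not come from the same peak in each, was 81.6 ± 30.4 at lin-46, 66.7 ± 22.5 at lin-42, 56.1 ± 5.86 at daf-12 and 46.0 ± 19.6 at lin-41 (mean ± SD, n = 2). It was 43.3 ± 11.0 at lin-14, 35.8 ± 11.3 at hbl-1, 34.9 ± 2.79 at lin-29 and 32.5 ± 1.20 at lin-28 (mean ± SD, n = 2). Neighbours in this order did not differ beyond the spread of the replicates. Of the 4 genes with the highest means, daf-12 had the smallest SD. Its 51.9 in replicate 1 came from the peak at the tRNA gene and its 60.2 in replicate 2 from the intronic peak. These are different peaks, so the small SD does not describe how well 1 peak repeats.

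**Figure D3:**
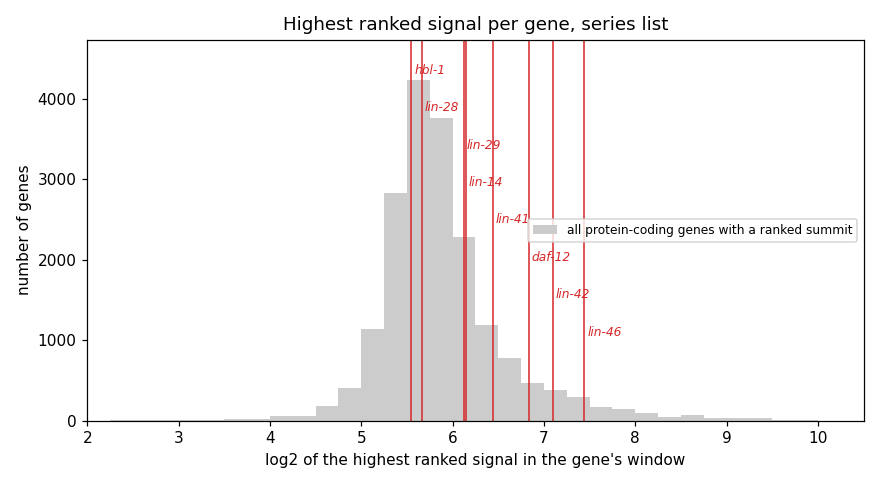
Grey bars count protein-coding genes by the log2 of the highest ranked signal in their window, in the conservative ranked list, and red lines mark the 8 heterochronic genes. The genes counted were not matched for length. lin-46, lin-42 and daf-12 lie in the upper tail, at 174, 137 and 114 before the log, and hbl-1 and lin-28 lie below the genome's median of 54.8.

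The threshold separated peaks of near signals. Among the members' called peaks, the lowest scores belonged to lin-14, with a score of 882 and a signal of 44.4, and then to peaks at the cap of 1000. Among those not called, the nearest were at lin-42, with a score of 712 and a signal of 67.7, at lin-29, with 702 and 69.9, and at lin-14, with 691 and 63.4. All 3 had a higher signal than the called peak of lin-14. Over the 7 called peaks the median signal was 103, against 96.7 over all 1627, with 4 of the 7 above that median and 2 above the upper quartile of 132.

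**Figure D4:**
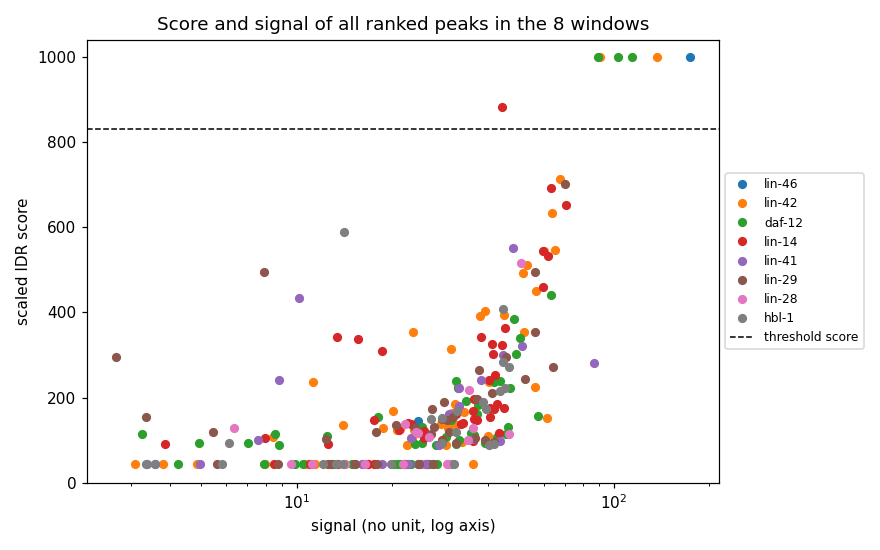
Each of the 265 points is a ranked peak in the window of 1 of the 8 genes, with its signal on a log axis and its scaled IDR score on the vertical axis; the dashed line is the threshold score of 830. The 6 peaks at 1000 have signals from 89.0 to 174, and the called lin-14 peak lies at a signal of 44.4, left of many peaks that were not called.

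The called summits lay in sequence richer in GC than the genome. The GC content within 50 bp of the 7 summits ranged from 44.6% to 57.4% with a median of 49.5%, against 49.5% over all conservative summits and 35.4% over the genome. Copies in the genome were counted for the 128 words of 24 bases within 75 bp of each summit. At 5 of the 7 summits every word occurred once. At the daf-12 summit inside the tRNA gene, 59 of the 128 words occurred more than once, in up to 19 copies, and at lin-46 35 of the 128 did, in up to 31 copies. What these repeated words contribute to the peaks was not tested. The nuclear receptor half-site AGGTCA and the E-box CACGTG matched in 0 of the 7 peaks, over their whole width. AGGTCA lay within 50 bp of 2.89% of all conservative summits and of 2.70% of ranked summits below the threshold, and CACGTG of 4.18% and 2.37%. GAGAG lay within 50 bp of 2 of the 7 summits, at lin-42 and lin-14, against 31.0% of all conservative summits, 15.1% of those below the threshold and 13.7% of windows 500 bp to the right. Over the whole peak it matched in 5 of the 7, against 55.1% of all, with 6 matches in the stronger lin-42 peak. TGATAA lay within 50 bp of 1 of the 7 (lin-46), against 6.08% of all and 7.98% of those below the threshold. Over the whole peak it matched in 1 of the 7, against 19.1% of all.

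ACGCAG was picked after these windows were read, so its presence in them is no support. It lay within 50 bp of 3 of the 7 summits, in the first intron of lin-42, the first intron of daf-12 and intron 3 of lin-14. Over all 1627 conservative summits it lay within 50 bp of 194, or 11.9%, against 2.75% of ranked summits below the threshold and 2.27% of windows 500 bp to the right. It also matched once in the peaks that only the other series list called at lin-14 and at lin-41. Those matches were not within 50 bp of the summits. Over the whole peak, ACGCAG matched in 20.8% of all conservative peaks. GTTCGA, also added after the sequences were seen, lay within 50 bp of 1 of the 7, the daf-12 peak inside the tRNA gene, against 8.91% of all conservative summits.

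Other genes of developmental timing were listed from textbook knowledge, with earlier results of these peaks known. Of 30 such genes, 17 (56.7%) had a conservative summit in the same kind of window, and 12 of the 24 protein-coding ones (50.0%), against 17.3% of all protein-coding genes. These 24 genes are 2198 to 21764 bp long, against a median of 2027 bp for all protein-coding genes. A longer window collects more summits, and no share among genes of like length was set beside these counts. Over the 17 genes, the highest conservative peaks had a median signal of 98.0. The other series list gave 16 of 30, and 11 of the 24 protein-coding ones, against 18.8% of all protein-coding genes. A peak that passed in both replicates was present at 5 genes, all among the 24 protein-coding ones, against 6.16% of all protein-coding genes, and 4 of these lay closer than 1000 bp upstream of the gene. They were puf-9, a Pumilio-family RNA-binding protein gene, with a signal of 361 at 309 bp upstream, and nhl-2, a TRIM-NHL cofactor of microRNAs, with 345 at 867 bp. The others were ain-1, a GW182-related partner of Argonaute, with 135 at 960 bp, and lin-66, a regulator of lin-28, with 130 at 352 bp. The fifth, xrn-2, an exonuclease that degrades microRNAs, had 257 at 1192 bp upstream, where the nearest 5′ end was that of Y48B6A.1. At nhl-2 the nearest 5′ end was that of tag-340. In the same list, puf-9, nhl-2 and xrn-2 had a higher signal than the strongest member, lin-46 with 174, and ain-1 and lin-66 a lower one than lin-42 with 137.

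Small RNAs that act on the members were also on the list. A conservative summit lay in the windows of 4 of the 5 microRNA genes, against 21.5% of all annotated microRNA genes, and none of these peaks passed in both replicates. The nearest protein-coding 5′ end was that of C05G5.2 at let-7, of unc-39 at mir-48 and mir-241, and of mboa-1 at mir-84. let-7, which acts on lin-41, had 2, the stronger with a signal of 82.3 at 1849 bp upstream of the gene that RefSeq annotates, with 42.0 in replicate 1 and 45.2 in replicate 2. mir-48 and mir-241, relatives of let-7 that act on hbl-1, shared 1 peak with a signal of 98.0, with 33.8 in replicate 1 and 56.2 in replicate 2. mir-84, another relative, had 89.3, with 33.9 in replicate 1 and 46.9 in replicate 2. lin-4, which acts on lin-14 and lin-28, had no conservative summit. The non-coding RNA gene lep-5 had a signal of 120, 3317 bp upstream, where the nearest protein-coding 5′ end was that of C02B4.3.

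Among the remaining listed genes with a conservative summit, din-1, which encodes a corepressor that binds DAF-12, had 3 summits, the strongest with a signal of 116. The membrane-bound transcription factor genes myrf-1 and myrf-2 had 114 and 97.9. sea-2 had 93.3 and lep-2 had 77.2, while blmp-1, a Blimp-family repressor gene, had 75.2 and kin-20, the casein kinase gene that partners lin-42, had 71.1. None of these passed in both replicates. At blmp-1 and kin-20 no other thresholded list held a summit in the window, and the stronger blmp-1 summit lay 104 bp past the 3′ end of the gene. The genes of hormone synthesis for DAF-12, daf-9 and daf-36, had no conservative summit, and neither had the nuclear receptor genes nhr-23, nhr-25 and nhr-85. The same held for the Argonaute genes alg-1 and alg-2, for ain-2, dcr-1, dre-1 and pup-2, and for mab-10, the partner of lin-29.

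The genes most like lin-46 in their highest signals over 3 lists, both series and replicates, were sought among 2614 protein-coding genes with 1 conservative summit in the window. On the log2 scale the distance was 0.00 for srd-35, hrg-9, R186.3, pnn-1 and R186.8, which share the lin-46 peak itself. The nearest genes with another peak were fig-1 and F17C11.22 at 0.07, which share a peak of 166, and dnc-1 at 0.12, with 167. Their replicate signals were 101 and 96.9 in replicate 1 and 59.2 and 62.0 in replicate 2, against 103 and 60.1 at lin-46.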

How the data were processed

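The authors deposited narrowPeak lists on build ce11, per the labels. Per the descriptions of the files, replicate lists came from 1 replicate's alignments and series lists from both. The sources used here name no aligner or peak caller. The deposited score is a scaled IDR, the deposited signal has no stated unit, and the ranked lists hold the global IDR as −log10. Genes came from Ensembl release 115, and let-7 and the tRNA type from RefSeq, both on the assembly of ce11.

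The members and lists were chosen with earlier results of these data known. All 8 members were named, with each conservative peak in a window, the strongest ranked peak of the others, listed genes with a conservative summit, and the nearest other genes. A summit in several windows was counted at each of those genes. Replicate peaks matched by 1 bp of overlap, taking the highest signal. Copies were counted for 24-base words within 75 bp of the summit. The words ACGCAG and GTTCGA and the tRNA alternative were added after the data were seen. Window counting was tested on simulated peaks. No statistical test was made. Python 3.11.15, numpy 2.4.6, scipy 1.17.1 and matplotlib 3.10.9 were used.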

Additional observations from a re-analysis of the deposited data

How the results depend on the processing

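Of 79 alternative values, 56 stayed the same within the limits set (1.5 times for counts, the replicate SD for signals) and 23 moved. Some of the 56 are no separate check. The count of peaks passing in both replicates needs both, so its values with a replicate left out add nothing. The promoter count without peaks near tRNA genes could not change, since the lin-46 summit lay 35481 bp from the nearest tRNA gene. The count of 4 genes with a conservative summit was 5 in the other series list, which added lin-41. It was 3 with the nearest 5′ end (without lin-46) and 3 inside the gene. Each replicate's own thresholded list gave 3 as well, but not the same genes. In replicate 1 they were lin-46, lin-42 and lin-41, the last of which is not among the 4. In replicate 2 they were lin-46, lin-42 and daf-12. The 7 conservative peaks were 4 among the stronger 50% of the list by signal and 4 inside the gene. In the windows, replicate 1's own thresholded list held 3 peaks and that of replicate 2 held 6. Not all of these overlap the 7 conservative peaks. The replicate 2 peaks of lin-42 with summits at positions 1242516 and 1242761 overlap each other and share a score of 917. The latter has a signal of only 4.49, so the 6 count that region more than once. The promoter count of 1 was 0 when summits went to the nearest 5′ end, and 0 when the window ran from 500 bp upstream to 100 bp downstream. The 2 peaks passing in both replicates were 1 inside the gene and 1 with the nearest 5′ end. The highest signal of lin-41 was 51.4 with a 1 kb flank. With a replicate left out, the highest signal ranged from 60.1 to 103 at lin-46, 50.8 to 82.6 at lin-42, 51.9 to 60.2 at daf-12, 32.1 to 59.9 at lin-41, 35.5 to 51.1 at lin-14, 32.9 to 36.9 at lin-29, 31.7 to 33.4 at lin-28 and 27.8 to 43.8 at hbl-1. All of these lie below the values in the series list, whose median over all genes is 54.8, against 29.4 in replicate 1 and 32.2 in replicate 2. The cause of these changes was not tested.

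No paired analysis was possible because the 2 replicates form 1 group. Without read counts, untagged animals or input, background at these genes has no measure here, and 2 replicates give an SD of low precision. A peak in a window does not say which gene it serves.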
